A study of Homo sapiens with 12 samples.

Results

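The levels of 10 genes of glucose uptake and glycolysis were compared across 12 RNA-seq libraries of SK-N-DZ neuroblastoma cells, in which a hairpin against ARID1A can be switched on with doxycycline and which were given IFNγ or not. These were the glucose transporters SLC2A1, SLC2A3 and SLC2A4, the hexokinases HK1 and HK2, the phosphofructokinase PFKP, the pyruvate kinase PKM, the lactate dehydrogenases LDHA and LDHB, and the pyruvate dehydrogenase kinase PDK1. They were picked by name, as 10 of the 43769 genes in the count table, and SLC2A4 was included because its level had been seen to be lower in the libraries given IFNγ. Of the 10 genes, 9 passed the expression filter, as did 15828 genes in all. SLC2A3 was the gene just outside the filter, with 0 to 7 counts per library, and SLC2A4 was the lowest gene inside it, with 8 to 84 counts per library.

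SK-N-DZ is a human neuroblastoma line with MYCN amplification. The 4 groups of 3 libraries were untreated cells (C), cells given doxycycline for 4 days (D), cells given IFNγ for 24 h (I) and cells given both (DI). Every group, C and I included, carried the doxycycline-inducible shRNA construct against ARID1A and came from cells kept under puromycin before treatment. The cells were a clonal line, the hairpin it holds was not named for the RNA-seq, and no library had doxycycline without the hairpin, so an effect of the drug and an effect of the hairpin cannot be told apart. ARID1A, the target of the hairpin, stood at 197, 186 and 165 CPM (counts scaled to library size with TMM factors) in C1 to C3 and at 197, 159 and 158 CPM in D1 to D3. It stood at 192, 202 and 193 CPM in I1 to I3 and at 151, 133 and 148 CPM in DI1 to DI3. ARID1A did not pass the test in D vs C (log2 fold change -0.09 ± 0.11 SE, adjusted p = 0.788) or in DI vs I (-0.44 ± 0.11 SE, adjusted p = 0.115), so the libraries are named below by their doxycycline label and not by a knockdown. These tests do not show that ARID1A was unchanged. The study reported its knockdown in SK-N-DZ clones by qPCR and Western blot. IRF1, a core gene of the IFNγ response, was higher in I than in C by 7.58 on the log2 scale (adjusted p = 2.75e-09).

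Glucose enters cells through the SLC2A (GLUT) family. SLC2A1 serves most proliferating cells, SLC2A3 is the high-affinity transporter of neurons, and SLC2A4 is the insulin-responsive transporter of muscle and fat. Hexokinase traps glucose as glucose 6-phosphate, phosphofructokinase commits it to glycolysis, and pyruvate kinase makes pyruvate. LDHA favours the conversion of pyruvate to lactate and LDHB the reverse, while PDK1 phosphorylates pyruvate dehydrogenase and so keeps pyruvate out of the mitochondrial matrix reactions. SLC2A1, HK2, LDHA and PDK1 are textbook targets of hypoxia-inducible factor (HIF).

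Because several of these genes moved together, the bases before their transcription starts are shown for 5 of them. The sequences are RefSeq windows (GRCh38.p14) of 250 bases that end just before an annotated start, and capitals mark ACGTG or its reverse complement, the core letters of a HIF response element. LDHA and HK2 stand for genes with the letters, SLC2A1 and PKM for co-varying genes without them in this window, and LDHB for the paralog that did not move with the rest.
LDHA, chr11:18394313-18394562, plus strand: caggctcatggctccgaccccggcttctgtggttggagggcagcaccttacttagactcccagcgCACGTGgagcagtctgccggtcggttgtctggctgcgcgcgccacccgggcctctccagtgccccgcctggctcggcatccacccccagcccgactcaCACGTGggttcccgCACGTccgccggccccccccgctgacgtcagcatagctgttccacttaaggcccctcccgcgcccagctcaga
HK2, chr2:74833877-74834126, plus strand: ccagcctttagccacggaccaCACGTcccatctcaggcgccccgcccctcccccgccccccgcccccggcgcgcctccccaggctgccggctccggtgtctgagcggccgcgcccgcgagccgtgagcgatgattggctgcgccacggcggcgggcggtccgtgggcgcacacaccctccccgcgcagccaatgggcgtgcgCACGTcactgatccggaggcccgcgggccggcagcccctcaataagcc
SLC2A1, chr1:42958869-42959118, minus strand: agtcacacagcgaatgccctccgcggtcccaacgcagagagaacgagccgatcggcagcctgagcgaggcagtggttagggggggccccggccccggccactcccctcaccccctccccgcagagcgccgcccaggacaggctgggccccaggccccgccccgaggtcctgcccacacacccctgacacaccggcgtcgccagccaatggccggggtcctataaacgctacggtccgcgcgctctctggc
PKM, chr15:72231191-72231440, minus strand: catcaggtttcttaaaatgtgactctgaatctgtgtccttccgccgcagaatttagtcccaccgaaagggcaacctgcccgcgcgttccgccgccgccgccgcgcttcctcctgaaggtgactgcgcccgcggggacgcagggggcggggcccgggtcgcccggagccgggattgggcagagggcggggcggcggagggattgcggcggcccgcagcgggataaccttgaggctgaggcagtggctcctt
LDHB, chr12:21657843-21658092, minus strand: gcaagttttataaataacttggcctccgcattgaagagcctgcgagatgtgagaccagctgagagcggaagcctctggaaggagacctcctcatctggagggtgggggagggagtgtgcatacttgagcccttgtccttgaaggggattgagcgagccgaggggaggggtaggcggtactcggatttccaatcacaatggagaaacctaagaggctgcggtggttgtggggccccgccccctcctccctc
Windows were found for 8 of the 10 genes, 20 windows in all, since HK1, HK2, PFKP, LDHA and PDK1 have several annotated starts, some of which overlap. ACGTG lay on either strand in 5 of the 20 windows, from HK2, PFKP, LDHA and PDK1, against 18.5% of all 35116 RefSeq windows of the same length. The E-box CACGTG, which contains ACGTG on both strands, lay in 2 of the 20 windows (LDHA and HK2, the latter at a second start) against 6.34% of all windows. The letters TTCNNNGAA of a gamma-activated site, read the same on both strands, lay in 1 window of HK1 and 1 of PDK1 against 6.57% of all windows. These are matches of letters in 1 window per start and not binding sites.

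The doxycycline libraries of replicate number 2 (D2 and DI2) stood apart from the other doxycycline libraries in SLC2A1, HK1, HK2, PFKP, LDHA and PDK1, and less so in PKM. SLC2A4 did not divide in this way. Doxycycline differences of the tested genes among the 10, over both arms, are therefore given with all 12 libraries, without replicate number 2 in every group, and without D2 and DI2 alone. The choice of replicate 2 rests on the values of these same genes, so the fits without it describe how far the result turns on those libraries and are not independent support. Total counts were 16469832 to 21790869 per library, and 3 counts, taken as the detection floor, equal 0.135 to 0.187 CPM. D2, at 18162578 counts, and DI2, at 19033653, lay inside that range. All 10 neuroblastoma markers checked were detected, with a summed level of 4550 to 5920 CPM, the T-cell gene CD3E was at 0, and the summed level of 6 mesenchymal genes was 32.9 to 121 CPM. Of 5 fat-cell markers ADIPOQ, LEP and FABP4 were at 0 in every library, with sums of at most 0.524 CPM.

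Per unit of exon length, on the TPM scale, LDHA was the most abundant of the 10 genes in each group, with a mean level of 1633 TPM ± 314 (SD, n = 3) in C. PKM followed at 1098 TPM ± 183 (SD, n = 3), then PFKP at 369, HK2 at 234, HK1 at 178, SLC2A1 at 163, PDK1 at 100.2 and LDHB at 74.4 TPM. The order of neighbours within the spread was not firm: in C, HK1 ranged from 147 to 227 TPM and SLC2A1 from 143 to 195 TPM. PDK1 ranked above LDHB in C and I and below it in D and DI, and with the longest transcript as the length HK1 and HK2 changed places and LDHB ranked above PDK1 in every group. SLC2A4 was far lower, at 2.98 TPM in C, and SLC2A3 was at 0.0332 TPM.

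**Figure D1:**
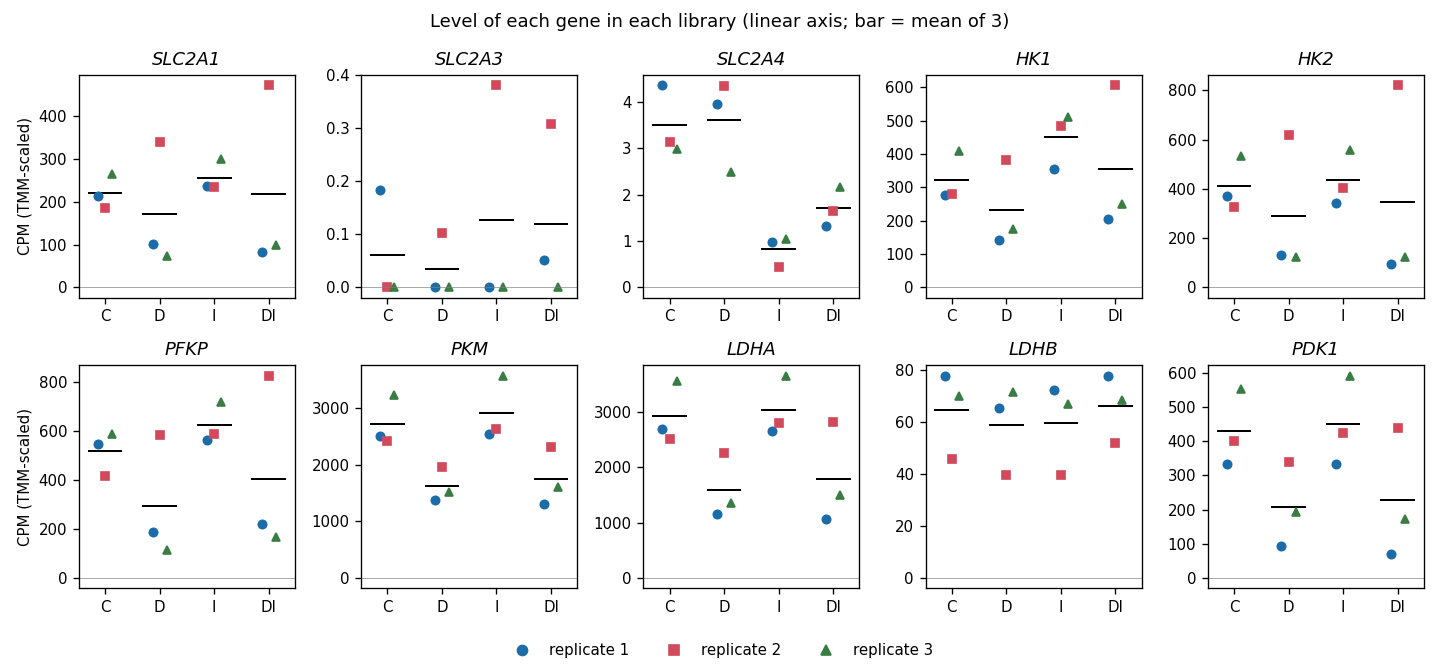
CPM of each of the 10 genes (vertical axes, linear and different for each gene) in the 3 libraries of C, D, I and DI. Points are libraries, with colour and shape for the replicate number, and bars are group means. For SLC2A1, HK1, HK2 and PFKP the square of replicate 2 is the highest point of D and DI while replicates 1 and 3 lie below every library of C and I.

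SLC2A1 (ENSG00000117394, chr1:42925375-42959176, GRCh38, minus strand), the general glucose transporter, stood at 213, 187 and 265 CPM in C1, C2 and C3 and at 103, 339.7 and 72.6 CPM in D1, D2 and D3. With IFNγ it stood at 237, 235 and 299.97 CPM in I1 to I3 and at 84.1, 474 and 99.3 CPM in DI1 to DI3. Replicates 1 and 3 were lower with doxycycline in both arms and replicate 2 was higher in both. Over both arms, D and DI against C and I, the log2 fold change was -0.30 ± 0.47 SE (adjusted p = 0.761) with 12 libraries. It was -1.50 ± 0.15 SE (adjusted p = 0.00698) without replicate 2 and -1.42 ± 0.15 SE (adjusted p = 0.00111) without D2 and DI2 alone.

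SLC2A3 (ENSG00000059804, chr12:7919230-7936275, GRCh38, minus strand) had 3, 0 and 0 counts in C and 0, 2 and 0 counts in D. With IFNγ it had 0, 7 and 0 counts (I) and 1, 6 and 0 counts (DI). These are at or near the floor, and no test was made. Its pseudogene SLC2A3P2 had 15 counts over the 12 libraries against 19 for SLC2A3, and the near-identical paralog SLC2A14 can also take its reads, so even these counts are uncertain. Of the 3 transporters, SLC2A1 alone lay far above the floor in every library.

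SLC2A4 (ENSG00000181856, chr17:7281667-7288257, GRCh38, plus strand) stood at 4.36, 3.13 and 2.99 CPM in C1 to C3 and at 0.989, 0.436 and 1.05 CPM in I1 to I3. It stood at 3.95, 4.34 and 2.49 CPM in D1 to D3 and at 1.33, 1.64 and 2.16 CPM in DI1 to DI3. The libraries with IFNγ lay below those without it, with and without doxycycline, which is the pattern for which the gene was chosen and is given with no test. The fitted log2 difference was -2.07 ± 0.39 SE in I vs C and -1.07 ± 0.37 SE in DI vs D, from 8 to 48 counts per library with IFNγ. Described in the same way, DI was above I by 1.05 ± 0.39 SE on the log2 scale and D differed from C by 0.04 ± 0.37 SE, a value that was -0.20 without replicate 2 and -0.12 without D2 and DI2 alone. The doxycycline comparison over both arms is balanced over IFNγ, but it uses the same libraries from which the gene was chosen and is not fully separate from that choice. There SLC2A4 did not pass the test (log2 fold change 0.55 ± 0.27 SE, adjusted p = 0.249). Its value was 0.29 without replicate 2 (adjusted p = 0.579) and 0.48 without D2 and DI2 alone (adjusted p = 0.353).

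Of 13959 genes compared over the 12 libraries, the 5 whose log2(CPM + 1) followed that of SLC2A4 most closely were KLRG2 (Pearson r = 0.929), NEU3 (0.912), CLN8 (0.902), SOCS2 (0.889) and PLPPR4 (0.886). They were picked for this likeness, and the 12 points share the 4 group means, so r is a description. SOCS2, a suppressor of cytokine signaling, had group means of 26.1 CPM (C) and 27.9 CPM (D) without IFNγ, and of 3.06 CPM (I) and 5.89 CPM (DI) with it. NEU3, a membrane sialidase, had a narrower range of means, from 29.4 CPM in C to 23.3 CPM in I. Of 22 genes that act on SLC2A4 traffic, insulin signaling or its transcription, all tested, 1 fell with doxycycline over both arms, the syntaxin STX4 (log2 fold change -0.42 ± 0.11 SE, adjusted p = 0.043), and their median log2 fold change was 0.02. That 1 of 22 is close to the 4.02% of all tested genes called lower. With the replicate block 2 of the 22 were called higher and 4 lower (background 13.3% and 15.8%). Without replicate 2 the 1 call among the 22 was the transcription factor ZNF395 (-1.03, adjusted p = 0.0251), which shares 34.9% of its exon bases with FBXO16 on the same strand and is uncertain, while STX4 was at -0.46 (adjusted p = 0.0529).

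HK1 (ENSG00000156515, chr10:69269984-69401884, GRCh38, plus strand), the constitutive hexokinase, stood at 278, 280.1 and 410.0 CPM in C and at 143, 381 and 174 CPM in D. With IFNγ it stood at 354, 485 and 511 CPM in I and at 206, 608 and 252 CPM in DI. HK2 (ENSG00000159399, chr2:74833981-74893359, GRCh38, plus strand), the inducible hexokinase, stood at 369, 326 and 534 CPM in C and at 133, 619 and 123 CPM in D. Both enzymes were lower with doxycycline in replicates 1 and 3 and higher in replicate 2, and HK2 swung more widely. HK2 stood at 344, 403 and 557 CPM in I and at 95.4, 822 and 123 CPM in DI, so that DI spanned a range wider than that of any other group. Over both arms the log2 fold change was -0.41 ± 0.31 SE for HK1 (adjusted p = 0.474) and -0.41 ± 0.57 SE for HK2 (adjusted p = 0.722). Without replicate 2 it was -1.02 ± 0.18 SE for HK1 (adjusted p = 0.0246) and -1.94 ± 0.20 SE for HK2 (adjusted p = 0.00714). Without D2 and DI2 alone it was -1.003 ± 0.16 SE for HK1 (adjusted p = 0.0058) and -1.84 ± 0.19 SE for HK2 (adjusted p = 0.00108).

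PFKP (ENSG00000067057, chr10:3066333-3137712, GRCh38, plus strand), the platelet-type phosphofructokinase, stood at 545, 418 and 587 CPM in C and at 188, 584 and 113 CPM in D. It stood at 563, 587 and 716 CPM in I and at 220.4, 825 and 167 CPM in DI. D2 reached the level of the highest control library while D1 and D3 lay below every control. The log2 fold change over both arms was -0.71 ± 0.45 SE (adjusted p = 0.375), and -1.82 ± 0.19 SE (adjusted p = 0.00698) without replicate 2. It was -1.73 ± 0.18 SE (adjusted p = 0.00103) without D2 and DI2 alone.

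PKM (ENSG00000067225, chr15:72199029-72231822, GRCh38, minus strand), the pyruvate kinase of most tissues, stood at 2495, 2422 and 3222 CPM in C and at 1372, 1959 and 1524 CPM in D. It stood at 2529.9, 2618 and 3567 CPM in I and at 1304, 2307 and 1606 CPM in DI. The doxycycline libraries lay below the others in each arm with no overlap, D2 and DI2 included. PKM fell with doxycycline over both arms, with a log2 fold change of -0.74 ± 0.16 SE, to 0.598 times the level without the drug (adjusted p = 0.0204). The call was lost when any 1 of C3, D1, I3 or DI3 was left out (adjusted p = 0.0517, 0.0535, 0.0535 and 0.0525). PKM fell to 0.49 times without replicate 2 (-1.03 ± 0.15 SE, adjusted p = 0.017), and the log2 fold change was -0.95 ± 0.14 SE (adjusted p = 0.00393) without D2 and DI2 alone. Taken singly, D vs C (-0.75 ± 0.23 SE, adjusted p = 0.161) and DI vs I (-0.74 ± 0.23 SE, adjusted p = 0.202) did not pass, but with the replicate number as a block they did (adjusted p = 0.0202 and 0.0251). The counts do not separate the M1 and M2 splice forms.

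LDHA (ENSG00000134333, chr11:18394388-18408425, GRCh38, plus strand) stood at 2704, 2507 and 3560.5 CPM in C and at 1151, 2252 and 1351 CPM in D. It stood at 2658, 2813 and 3661 CPM in I and at 1059.5, 2827 and 1511 CPM in DI. D lay below C with no overlap, whereas DI2 lay within the range of I. Over both arms the log2 fold change was -0.82 ± 0.24 SE (adjusted p = 0.0674), which passed with the replicate block (-0.90 ± 0.19 SE, adjusted p = 0.00664), and without replicate 2 (-1.32 ± 0.18 SE, adjusted p = 0.0124). Without D2 and DI2 alone it was -1.24 ± 0.16 SE (adjusted p = 0.00244).

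LDHB (ENSG00000111716, chr12:21635342-21757857, GRCh38, minus strand) stood at 77.5, 45.8 and 69.7 CPM in C and at 65.4, 39.6 and 71.5 CPM in D. It stood at 72.0, 39.7 and 67.0 CPM in I and at 77.7, 51.7 and 68.2 CPM in DI. The groups overlapped throughout, and here replicate 2 was the lowest library of every group. The log2 fold change over both arms was 0.01 ± 0.20 SE (adjusted p = 0.989), and -0.02 ± 0.08 SE (adjusted p = 0.904) without replicate 2. It was 0.19 ± 0.19 SE (adjusted p = 0.578) without D2 and DI2 alone. Of its annotated exon bases 33.4% also belong to another gene on the same strand, AC010197.2, so that reads there may have gone uncounted and the level of LDHB is uncertain.

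PDK1 (ENSG00000152256, chr2:172555373-172608669, GRCh38, plus strand), which restrains pyruvate dehydrogenase, stood at 333, 401 and 552 CPM in C and at 93.8, 340.3 and 193 CPM in D. It stood at 333, 425 and 592 CPM in I and at 69.7, 439.5 and 172 CPM in DI. Replicates 1 and 3 were lower with doxycycline, and in replicate 2 the libraries with and without the drug were close. The log2 fold change over both arms was -1.01 ± 0.42 SE (adjusted p = 0.173), which passed with the replicate block (-1.26 ± 0.28 SE, adjusted p = 0.00839), and without replicate 2 (-1.79 ± 0.40 SE, adjusted p = 0.0415). Without D2 and DI2 alone it was -1.74 ± 0.33 SE (adjusted p = 0.0111).

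Set against its same-numbered partner in the same arm, the pattern divided the genes by replicate. HK2 differed by -1.47, 0.92 and -2.12 on the log2 scale in D vs C for replicates 1, 2 and 3, and by -1.85, 1.03 and -2.17 in DI vs I. SLC2A1 differed by -1.05, 0.86 and -1.87 in D vs C and by -1.49, 1.01 and -1.59 in DI vs I. PKM differed by -0.86, -0.31 and -1.08 in D vs C and by -0.96, -0.18 and -1.15 in DI vs I. SLC2A1, HK1, HK2 and PFKP were below their partner in the 4 pairs of replicates 1 and 3 and above it in the 2 pairs of replicate 2, as were 6.68% of all genes tested. PKM was below its partner in all 6 pairs, as were 14.9% of all genes tested. LDHA and PDK1 were below their partner in 5 pairs, a pattern whose share among all genes was not counted, so it is a description. The pairs of replicate 2 were near 0 for LDHA (-0.15 and 0.01) and for PDK1 (-0.24 and 0.05).

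**Figure D2:**
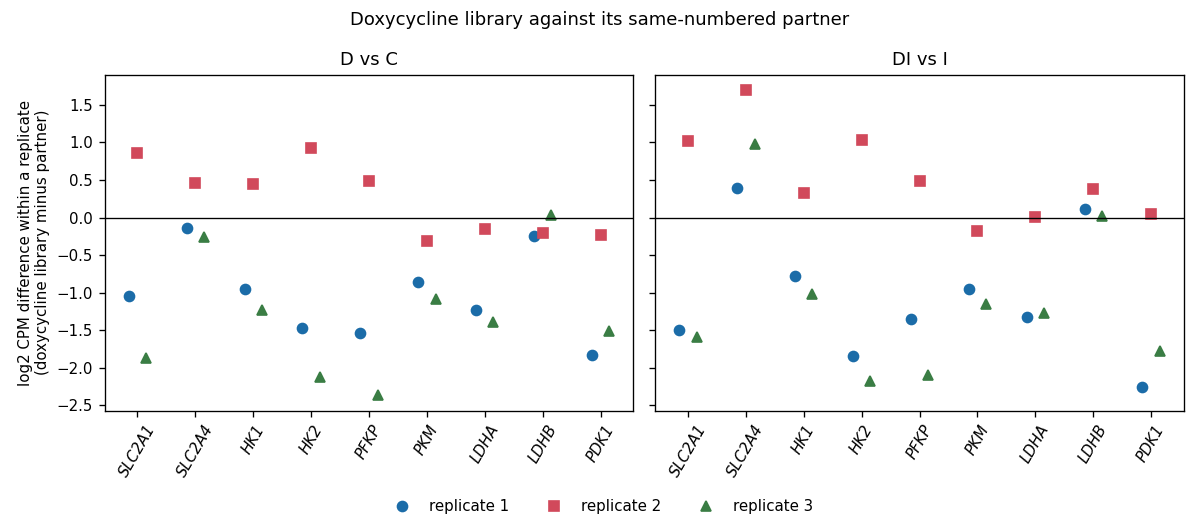
Log2 difference in CPM (vertical axis, pseudocount 0.1 CPM) between each doxycycline library and the library of the same replicate number without doxycycline, for 9 genes, without IFNγ (left) and with it (right). Squares of replicate 2 lie above 0 for SLC2A1, HK1, HK2 and PFKP, where circles and triangles of replicates 1 and 3 lie below it.

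By edgeR's quasi-likelihood test, 1 of the 9 tested genes, PKM, was called lower with doxycycline over both arms, where 4.02% of all tested genes were called lower. Taken singly, D vs C and DI vs I called 0 of the 8 genes other than SLC2A4, against backgrounds of 0.733% and 0.569%. Among the 8 genes other than SLC2A4, the smallest adjusted p was that of PKM in both (0.161 and 0.202), and DESeq2 called PKM in D vs C (adjusted p = 0.0412, background 2.53%). DESeq2 called PKM and LDHA over both arms, against 6.82% of the genes it tested. With the replicate number as a block, PKM, LDHA and PDK1 were called over both arms against a background of 15.8%, PKM and LDHA in D vs C against 7.67%, and PKM in DI vs I against 6.62%. The block also moved the log2 fold changes over both arms of 4 genes that did not pass. SLC2A1 was at -0.70 (adjusted p = 0.203), HK1 at -0.55 (adjusted p = 0.0834), HK2 at -0.99 (adjusted p = 0.142) and PFKP at -1.09 (adjusted p = 0.0542). D lay wholly below C for PKM and LDHA, against 9.1% of tested genes, and DI lay wholly below I for PKM, against 8.41%.

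Without replicate 2 the count over both arms was 7 of 9 (SLC2A1, HK1, HK2, PFKP, PKM, LDHA and PDK1), where 5.21% of tested genes were called lower. In that fit SLC2A1 and PFKP were called in D vs C (background 0.529%) and 0 of 8 in DI vs I (background 0.227%), where adjusted p was 0.0548 for SLC2A1 and HK2. Without D2 and DI2 alone, a setting chosen after the data were seen, the same 7 genes were called over both arms (background 8.2%). In that fit SLC2A1, HK2, PFKP, PKM and LDHA were called without IFNγ (D vs C, background 1.67%) as well as with it (DI vs I, background 1.71%). Leaving out replicate 1 or replicate 3 in every group instead left 0 of 9 called over both arms, and the share of all genes called in those 2 fits was not counted.

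**Figure D3:**
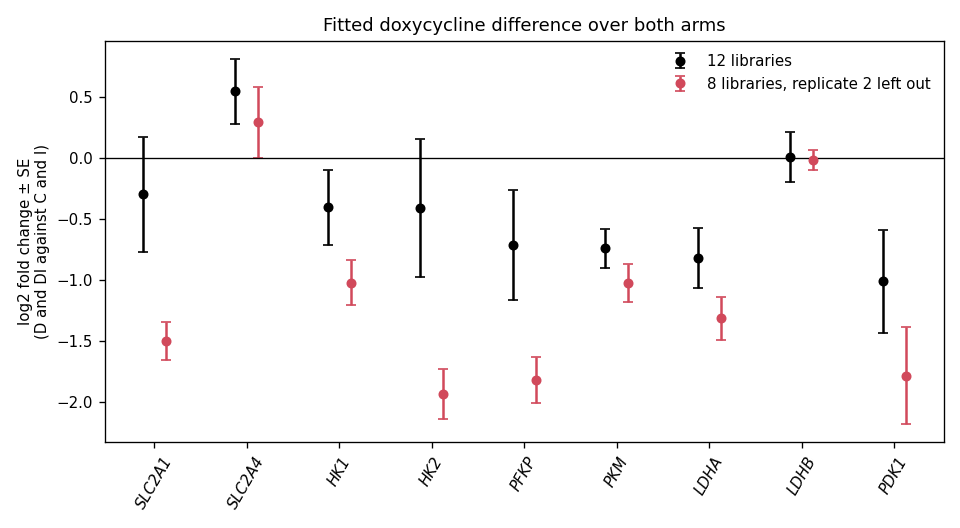
Fitted log2 fold change with its SE (vertical axis) for D and DI against C and I, in 9 genes, from all 12 libraries (black) and from the 8 libraries without replicate 2 (red). HK2 moves from -0.41 to -1.94 and PKM from -0.74 to -1.03, while LDHB is at 0.01 and -0.02.

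The other enzymes of the pathway were taken as a fixed list of 23 genes, 15 of them tested. Over both arms 3 fell and 0 rose: enolase ENO1 (log2 fold change -0.99 ± 0.22 SE, adjusted p = 0.0236), triose phosphate isomerase TPI1 (-0.75 ± 0.18 SE, adjusted p = 0.0288) and phosphoglycerate mutase PGAM1 (-0.67 ± 0.18 SE, adjusted p = 0.0494), where 4.02% of all tested genes were called lower and 3.66% higher. ENO1 stood at 3611, 1967 and 3027 CPM in C and at 1187, 1809 and 1134 CPM in D. The median of the 15 was -0.61 on the log2 scale, where that of all genes tested was 0.00. Without replicate 2, 8 of the 15 were called lower (5.21% of all tested genes) and the median was -1, with ALDOC at -2.98, PGK1 at -1.62, ALDOA at -1.49 and GPI at -1.16. Without D2 and DI2 alone 8 of 16 were called lower (background 8.2%). With the replicate block 9 of 15 were called lower (background 15.8%), GPI, PGK1 and GAPDH among them (adjusted p = 0.014, 0.0105 and 0.00386), and 1, the muscle enolase ENO3, higher (background 13.3%). ALDOA shares 42.3% of its exon bases with an overlapping gene on the same strand, AC093512.2, so its level is uncertain. Within replicates, the median of the list was -0.83, 0.00 and -1.18 for D vs C (replicates 1, 2 and 3), and for DI vs I it was -0.85, 0.08 and -1.08. GAPDH, the enzyme often used as a reference gene, had a log2 fold change of -0.39 ± 0.11 SE (adjusted p = 0.0645), and did not pass without replicate 2 (-0.49, adjusted p = 0.0706) or without D2 and DI2 alone (-0.38, adjusted p = 0.114). PFKM, the muscle-type phosphofructokinase, had a value of 0.04 (adjusted p = 0.858).

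Of 25 genes that handle pyruvate and lactate, 22 were tested. Over both arms pyruvate carboxylase PC fell (-0.38 ± 0.08 SE, adjusted p = 0.0219) and the lactate transporter SLC16A8, at a mean of 0.993 CPM, rose (1.29 ± 0.28 SE, adjusted p = 0.0211). That 1 of 22 in each direction is close to the 4.02% of all tested genes called lower and the 3.66% called higher. Without replicate 2, SLC16A8 passed (adjusted p = 0.039) and PC did not, at a fold change about as large (-0.41, adjusted p = 0.0564). Both passed without D2 and DI2 alone (adjusted p = 0.015 and 0.0413). With the replicate block 2 of the 22 were called higher and 4 lower (background 13.3% and 15.8%). SLC16A3, the lactate exporter MCT4, showed a wide split between replicates, with 316, 289 and 392 CPM in C and 11.6, 362 and 20.8 CPM in D. It stood at 279.6, 432 and 475 CPM in I and at 13.6, 547 and 45.6 CPM in DI. Its log2 fold change over both arms did not pass with 12 libraries (-1.15, adjusted p = 0.498) and was -4.07 without replicate 2 (adjusted p = 0.00792), -4.05 without D2 and DI2 alone (adjusted p = 0.000828) and -2.81 with the replicate block (adjusted p = 0.0247). SLC16A1, the related transporter MCT1, had a value of 0.07 (adjusted p = 0.717).

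Of 20 regulators of glycolysis, 15 were tested, and over both arms EPAS1 and PCK2 rose (background 3.66%) and FBP1 fell (background 4.02%). With the replicate block 4 were higher and 3 lower, where 13.3% of all tested genes were called higher and 15.8% lower. Without replicate 2 it was 1 and 4 (3.06% of all tested genes higher and 5.21% lower). Without D2 and DI2 alone it was 3 and 5 (5.83% higher and 8.2% lower). EPAS1, which encodes HIF2α, stood at 69.2, 50.1 and 43.2 CPM in C, and D was at 147, 145 and 99.1 CPM. With IFNγ, I was at 38.8, 28.8 and 23.5 CPM, and DI was at 88.7, 96.0 and 82.9 CPM. It was higher in the doxycycline library of each of the 6 pairs, replicate 2 included, and the share of all genes with that pattern was not counted. EPAS1 passed both in D vs C (1.27 ± 0.22 SE, adjusted p = 0.0256, background 0.493% called higher) and with IFNγ (DI vs I, 1.55 ± 0.23 SE, adjusted p = 0.013, background 0.101%). Without replicate 2 it passed over both arms (1.29, adjusted p = 0.0232) and in neither arm singly (1.12 and 1.47, adjusted p = 0.155 and 0.119). Without D2 and DI2 alone it passed in both arms (adjusted p = 0.0493 and 0.0256). HIF1A, its paralog, had a log2 fold change of 0.22 over both arms (adjusted p = 0.0719), with the replicate block an adjusted p of 0.0103, and 0.23 without replicate 2 (adjusted p = 0.173). PCK2, the mitochondrial phosphoenolpyruvate carboxykinase, rose by 0.74 ± 0.18 SE (adjusted p = 0.0371), and FBP1, the gluconeogenic fructose bisphosphatase, changed by -1.47 ± 0.33 SE (adjusted p = 0.0244) from a mean of 4.93 CPM. Neither passed without replicate 2, at values of 0.81 for PCK2 (adjusted p = 0.0798) and -1.35 for FBP1 (adjusted p = 0.122), and both passed without D2 and DI2 alone (adjusted p = 0.018 and 0.0375). PFKFB3 and PFKFB4, which make the activator fructose 2,6-bisphosphate, did not pass with 12 libraries (adjusted p = 0.544 and 0.702) and were at -2.17 and -3.17 without replicate 2 (adjusted p = 0.0053 and 0.00698). TXNIP and ARRDC4, glucose-responsive arrestins that limit glucose uptake, were at -1.51 and -1.21 without replicate 2 (adjusted p = 0.00177 and 0.02) and did not pass with 12 libraries (adjusted p = 0.252 and 0.184), but did with the replicate block (-0.95 and -0.81, adjusted p = 0.0214 and 0.0132).

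**Figure D4:**
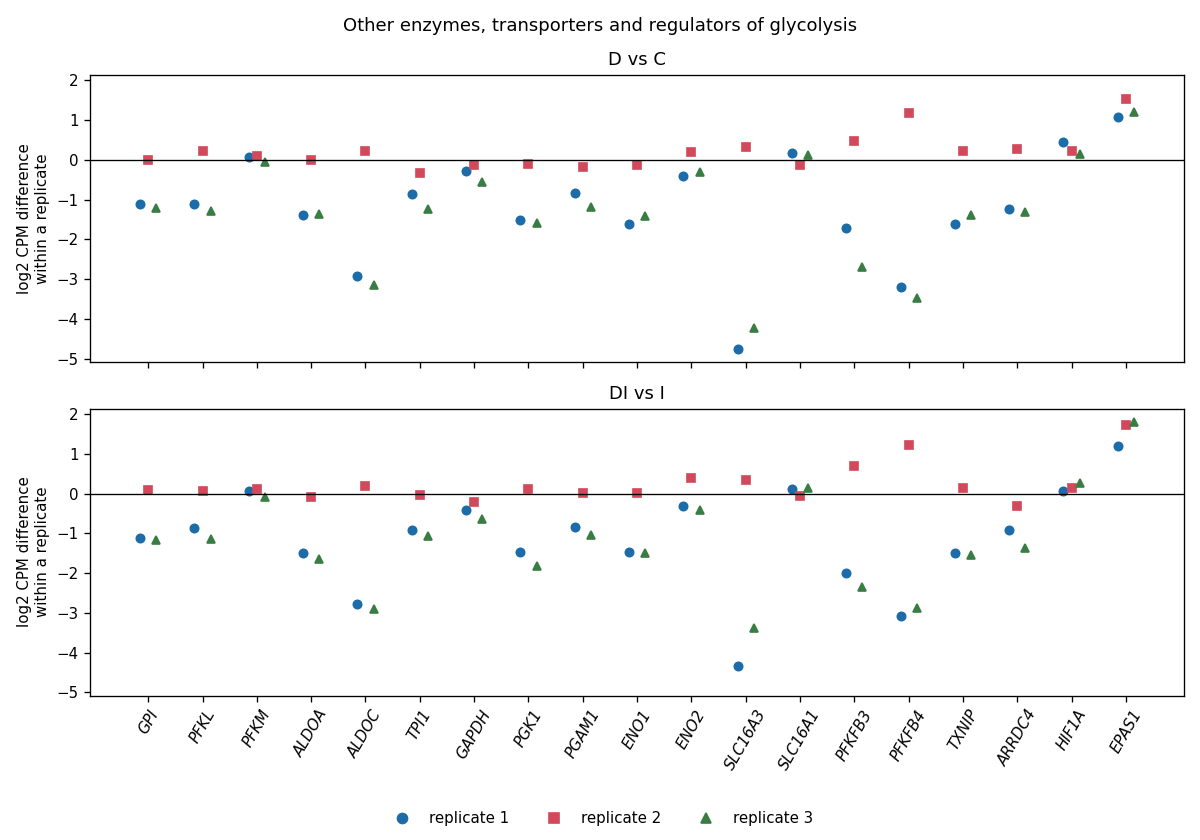
Log2 difference in CPM (vertical axis, pseudocount 0.1 CPM) between each doxycycline library and its same-numbered partner for 19 other genes of the pathway, without IFNγ (top) and with it (bottom). SLC16A3 and PFKFB4 lie far below 0 in replicates 1 and 3 and above it in replicate 2, whereas EPAS1 lies above 0 in all 6 pairs.

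Of 15 further sugar transporters 9 were tested and 0 passed by edgeR over both arms, with a median log2 fold change of 0.04. Of 8 genes of the pentose phosphate pathway, which branches from glucose 6-phosphate, 7 were tested and transketolase TKT fell (-0.30 ± 0.07 SE, adjusted p = 0.0374, background 4.02%). Without replicate 2, 0 of these 7 and 0 of the 9 transporters were called. With the replicate block 1 of the 7 was called higher and 3 lower (background 13.3% and 15.8%), and 0 of the 9 transporters were called.

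Other measures moved with doxycycline or with the split between replicates. The 13 mRNAs encoded by mitochondrial DNA took 4.99, 3.77 and 3.35% of counts in C and 1.3, 1.08 and 0.856% in D. With IFNγ they took 4.42, 3.91 and 2.9% (I) and 2.58, 1.12 and 0.768% (DI). They were lower in D2 and DI2 too, unlike SLC2A1, HK1, HK2 and PFKP, and 10 of the 13 fell over both arms, against 4.02% of all tested genes (6 of 13 without replicate 2, against 5.21%), with MT-ND6 at -2.38 ± 0.19 SE (adjusted p = 0.000113). With the replicate block 13 of the 13 were called lower, against 15.8%. Among 5 muscle markers, summed at 1.69 to 95.3 CPM per library, MYOD1 stood at 19.96, 7.05 and 92.6 CPM in C, and D was at 0.619, 80.5 and 0.579 CPM. With IFNγ, I was at 13.8, 15.5 and 87.6 CPM, and DI was at 0.359, 93.3 and 1.75 CPM. MYOD1 was thus low in the doxycycline libraries of replicates 1 and 3 and high in D2 and DI2, as SLC2A1 was. The likeness was partial, since MYOD1 was also far higher in C3 and I3 than in the other libraries of C and I. CKM, another of the 5, stood at 1.17, 0.943 and 1.81 CPM in C and at 1.57, 1.71 and 1.56 CPM in D, without such a split. It stood at 1.34, 1.96 and 1.89 CPM in I and at 1.13, 1.49 and 0.81 CPM in DI. In any library MYOG was at most 0.553 CPM, ACTA1 at most 0.593 CPM and MYH1 at most 0.0992 CPM. The part of the mitochondrial mRNAs or of MYOD1 in the results above was not tested. In bulk RNA, fewer cells of a type and less RNA per cell cannot be told apart.

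With the group means removed, the log2 levels of SLC2A1, HK1, HK2, PFKP, PKM, LDHA and PDK1 rose and fell together across the 12 libraries, with Pearson r from 0.694 (PFKP and PDK1) to 0.99 (SLC2A1 and HK2). LDHB was inversely related to these 7, with r from -0.604 (HK1) to -0.315 (PKM), and SLC2A4 had r from 0.0923 to 0.317 with them. The points share libraries and the split of replicate 2, so these values are descriptions.

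The ratio of a pair of paralogs within a library needs no scaling between libraries. LDHA exceeded LDHB by 34.9, 54.7 and 51.1 times in counts in C and by 17.6, 56.9 and 18.9 times in D. It did so by 36.9, 70.8 and 54.7 times in I and by 13.6, 54.7 and 22.1 times in DI, so the ratio was lower with doxycycline in replicates 1 and 3 and, in replicate 2, was near its partner in D and below it in DI. The mean log2 ratio differed by -0.91 (exact permutation test, two-sided, n = 6 against 6, p = 0.065, adjusted p = 0.26 over 4 tests) and by -1.29 without replicate 2 (exact permutation p = 0.0556, the smallest that 36 arrangements allow). HK2 counts were 1.33, 1.17 and 1.30 times those of HK1 in C, and in D they were 0.93, 1.62 and 0.704 times. With IFNγ they were 0.971, 0.831 and 1.09 times (I) and 0.463, 1.35 and 0.491 times (DI). The log2 ratio of HK2 to HK1 differed by -0.41 with doxycycline (exact permutation p = 0.195, adjusted p = 0.26) and by -0.50 with IFNγ (exact permutation p = 0.145, adjusted p = 0.26). Permuted within replicate pairs, the IFNγ difference had an exact p of 0.0312, the smallest that 64 arrangements allow, and an adjusted p of 0.125.

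**Figure D5:**
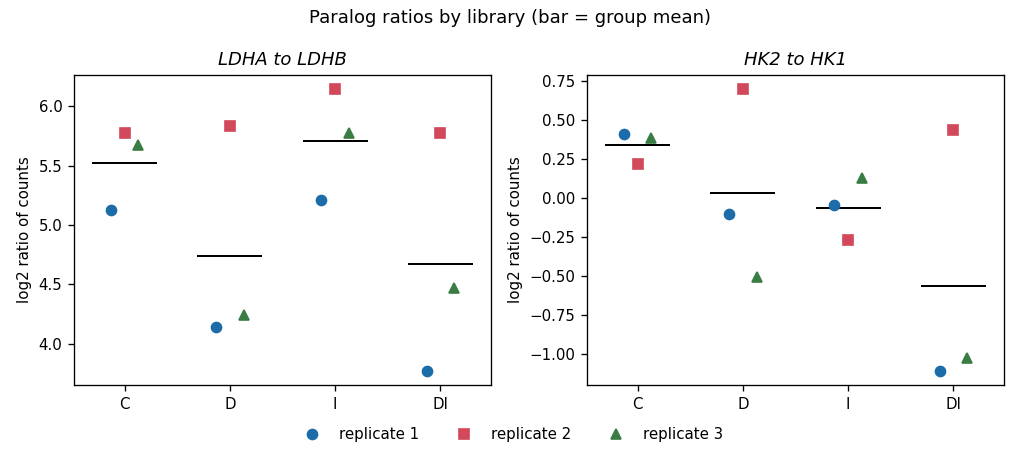
Log2 ratio of counts (vertical axes, not starting at 0) of LDHA to LDHB (left) and HK2 to HK1 (right) in each library of C, D, I and DI, with bars at group means. Replicate 2 is the highest point of D and DI in both panels, with 56.9 LDHA counts per LDHB count in D2 against 17.6 and 18.9 in D1 and D3.

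IFNγ alone, or on top of doxycycline, gave no call in the 8 tested genes other than SLC2A4. In I vs C their log2 fold changes ran from -0.11 (LDHB) to 0.48 (HK1), with SEs of 0.225 to 0.799 and adjusted p of 1 at 3 digits, where 2.21% of tested genes were called in either direction. In DI vs D they ran from 0.10 (PKM) to 0.61 (HK1), where 1.72% of tested genes were called. Not all of these directions were stable: without replicate 2, HK2 and PDK1 were at -0.21 and -0.24 in DI vs D, and over all settings 11 of 176 values changed sign in I vs C and 18 of 176 in DI vs D. With 12 libraries the smallest unadjusted p by edgeR was 0.294 in I vs C and 0.192 in DI vs D, so 0 of the 8 passed at an unadjusted p under 0.05 in that fit. DESeq2 and the replicate block also called 0. Without D2 and DI2 alone, HK1 in I vs C was at 0.48 (edgeR unadjusted p = 0.0355, adjusted p = 0.429). Of the 8, only HK1 and PFKP were higher with IFNγ in all 6 pairs, by 0.32 to 0.79 and by 0.05 to 0.56 on the log2 scale. The share of all genes with that pattern was not counted. The SE of HK1 in the fit with 12 libraries was 0.44. These SEs leave room for changes well over 1.5-fold in HK2 and SLC2A1, and equality is not shown. In the interaction, which asks whether IFNγ acts differently with doxycycline, the 8 log2 values ran from 0.01 to 0.27 with 12 libraries, 41 of 168 values changed sign over all settings, and 0 were called, against 0% of all genes tested by edgeR (99 of them at an unadjusted p under 0.05) and 1 gene by DESeq2. For SLC2A4 the interaction value was 1.00 ± 0.53 SE, given with no test.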

How the data were processed

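RNA of 12 libraries of an SK-N-DZ clone was sequenced in paired reads by the study. The authors deposited raw counts per gene, whole numbers for 43769 genes, and the aligner, counter and strand setting are not given in the sources used here. Submitters' processing notes name DESeq2. The comparison tables hold the authors' fold changes and p-values and were not used, nor were 18 per-library columns of names that no label explains. Groups were taken from the sample labels.

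Counts were scaled by TMM, filtered (filterByExpr, minimum count 10) and tested with edgeR 4.0.16 (limma 3.58.1, R 4.3.3): 1 quasi-likelihood model of 4 groups, two-sided, Benjamini-Hochberg adjustment over 15828 genes, called at an adjusted p under 0.05. Alternatives were a replicate block, DESeq2 1.42.0, 2 other scalings, no filter, 2 groups alone, and leaving out each library or replicate number. Code was tested on simulated counts. Positions and lengths came from GENCODE release 29 and promoter windows from RefSeq (Python 3.11.15). The floor is a fixed 3 counts, and SEs cover counting error and the spread between these libraries. Nothing says the replicates were separate cultures, so p-values measure only that spread, which may be technical. Replicates of a group differed by more than counting noise (chi-square per gene 18.4 to 78.6).

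Replicate numbers come from the sample titles. After group means were removed, same-numbered libraries of other groups correlated at 0.314 to 0.856 (18 pairs) and differently numbered ones at -0.679 to 0.199 (36 pairs), so the numbers pair the libraries. The main fit did not use this pairing, and its SEs could be larger than those with the block. In I vs C they were 0.436 and 0.299 for HK1, 0.799 and 0.598 for HK2, and 0.29 and 0.09 for LDHB. Blocked values are given where they change the call of one of the 10 genes, for SLC2A1, HK1, HK2 and PFKP over both arms, and for the other lists as counts or for named genes. For these lists the block and the fits without D2 and DI2 were added after the data were seen.

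The genes and lists were chosen with earlier results of these data known. Named besides the 10 genes were ARID1A and IRF1, up to 4 called genes per list, direction and contrast, and the 5 genes most like SLC2A4. SLC16A1, SLC2A14, HIF1A, GAPDH, PFKM, GPI, MYOD1, CKM, MYOG, ACTA1 and MYH1, and the values with 12 libraries of genes called only without replicate 2, were added after their values were seen. The SLC2A3 to SLC2A1 ratio was not tested, since most libraries had 0 SLC2A3 counts. Some further check and marker genes are not reported here.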

Additional observations from a re-analysis of the deposited data

How the results depend on the processing

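The number of genes called lower with doxycycline changed with the fit and with the libraries left out. The share of all tested genes called lower in the same fit is given in brackets where it was counted. Over both arms the number was 1 with 12 libraries (4.02%), 3 with the replicate block (15.8%) and 2 by DESeq2 (6.82%). It was 7 without D2 and DI2 (8.2%, chosen after seeing the data), and 0 to 7 when a library or replicate number was left out. It was 0 without C3, D1, I3, DI3, replicate 1 or replicate 3, where the adjusted p of PKM was 0.0517, 0.0535, 0.0535, 0.0525, 0.233 and 0.24, 2 without D2, 3 without DI2 and 7 without replicate 2 (5.21%). In D vs C it was 2 with the replicate block (7.67%), 1 by DESeq2 (2.53%), 5 without D2 and DI2 (1.67%), and 0 to 2 when a library or replicate number was left out. In DI vs I it was 1 with the replicate block (6.62%) and 5 without D2 and DI2 (1.71%). Where no share was counted, the number of calls cannot be told from a change in calling over all genes. The replicate block changed no other call among the 10 genes and the ratios, and the other scalings, the absence of a filter and fits of 2 groups left these counts as they were. In the tested doxycycline comparisons, log2 fold changes changed sign for SLC2A1, HK2 and LDHB. When libraries were left out, SLC2A1 ranged from -1.46 to 0.143 in D vs C, from -1.55 to 0.265 in DI vs I and from -1.5 to 0.204 over both arms, each time lowest without replicate 2 and highest without replicate 3. HK2 ranged likewise from -1.83 to 0.113, from -2.04 to 0.319 and from -1.94 to 0.216. LDHB ranged from -0.333 to 0.0895, from -0.078 to 0.307 and from -0.104 to 0.117, and was 0.0848 in D vs C without D2 and DI2. No ratio passed at an adjusted p under 0.05 in any setting. The permutation tests that left out a replicate number could not pass, since 36 arrangements allow no p below 0.0556, and they decide nothing. The cause of these changes was not tested.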
